A study of Homo sapiens with 4 samples.

Results

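The 10 genes described here belong to epithelial cell junctions and epithelial splicing, and were measured in MRC5, a fibroblast line from human fetal lung. The set held 5 membrane proteins of tight junctions and their relatives (F11R, CLDN1, CLDN4, CLDN7 and OCLN), the tight junction scaffold TJP1, the adhesion proteins CDH1, EPCAM and ESAM, and the splicing regulator ESRP1. All 10 were found by symbol among the 26255 genes of the deposited tables, and genes without signal were kept. Messenger RNA was sequenced in 2 libraries labelled with the treatment miRs and 2 labelled as having no treatment (control). All 4 are wild-type cells with 48 h in their titles. The design text says that miRs were transfected, without naming them. The title of the series sets NC-miR against miRs, whereas the treatment label of the controls reads no, so what the controls received cannot be told. No label ties the replicates to separate cultures, so p-values rest on library-to-library spread that may be technical.

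Tight junctions seal the space between neighbouring epithelial cells. Claudins and occludin form their strands in the membrane, junctional adhesion molecules stand beside them, and scaffolds such as ZO-1 tie them to actin. Adherens junctions below them are held by E-cadherin, and EPCAM is an epithelial adhesion protein that binds claudin-7. Fibroblasts normally lack E-cadherin and most claudins, and the repressors ZEB1, ZEB2 and Snail, which bind E-box sequences in promoters, are known to hold such genes down. Values are FPKM, fragments scaled by transcript length and library size, so levels of different genes can be compared within a library. How the libraries were scaled was not stated, so comparisons between libraries rest on that unknown scaling.

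The absolute read depth is unknown. Steps between low values gave the worth of 1 fragment relative to control replicate 1, at 0.899 in miRs replicate 1, 1.03 in miRs replicate 2 and 1.05 in control replicate 2. Between 11622 and 11781 genes per library reached 1 FPKM. Of 11860 tested genes, those with a mean of at least 1 FPKM, 725 lay over 1 log2 unit apart between the miRs libraries and 71 between the controls. The fibroblast genes COL1A1, at 1910 and 4742 FPKM in miRs and 2337 and 2521 FPKM in control, and VIM, at 2598 and 2249 FPKM in miRs and 3697 and 3170 FPKM in control, were abundant throughout.

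Most of the junction genes that were near silent in the control fibroblasts were higher in both miRs libraries, while the E-cadherin gene CDH1 and the splicing regulator ESRP1 stayed at or near 0. In 7 of the 10 genes (F11R, CLDN4, CLDN7, OCLN, TJP1, EPCAM and ESAM) both miRs libraries lay above both controls, as they did in 17.3% of all 26255 genes. Among the 6 tested junction genes it was 5, against 29.5% of the 11860 tested genes, but 4 of the 6 reached the minimum through the miRs libraries. No junction gene lay wholly below its controls, against 17.1% of all genes and 30.0% of tested genes. Of the 7 junction genes that were detected in some library and averaged under 1 FPKM in control, 6 lay above, against 21.5% of the 5993 such genes in the tables. That comparison was added after the values were seen. The median log2 difference of the 10 genes, miRs minus control on the log2(FPKM + 1) scale, was 0.70, against 0.0043 over the 17682 genes detected in at least 1 library.

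**Figure D1:**
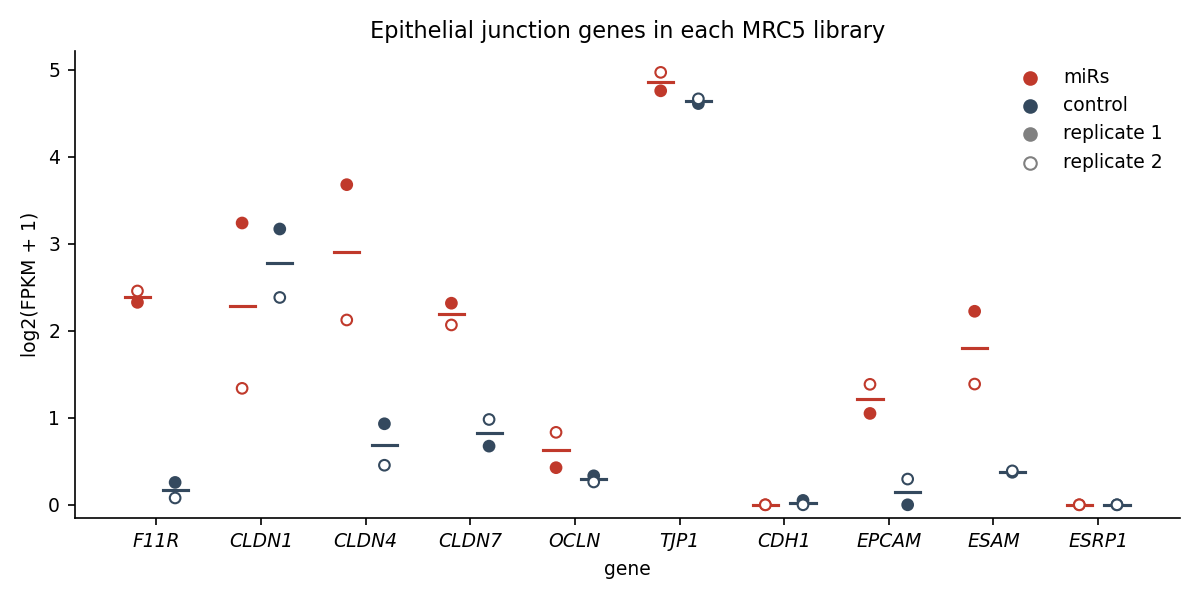
Expression of the 10 junction genes as log2(FPKM + 1), with the 2 miRs libraries in red left of the 2 controls in dark blue, replicate 1 filled, replicate 2 open, and bars at group means. F11R, CLDN4, CLDN7, EPCAM and ESAM lie near the floor in control and higher in both miRs libraries, TJP1 is high in both groups, and CDH1 and ESRP1 lie at or next to 0.

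With limma across all 11860 tested genes and Benjamini-Hochberg adjustment, 12 genes passed as higher in miRs (0.101%) and 17 as lower (0.143%). Of the junction genes, 6 reached the 1 FPKM minimum, and 1 of them, F11R, passed as higher. None passed as lower, nor had a lower value with an unadjusted p under 0.05. Of these 6, 4 (F11R, CLDN4, CLDN7 and ESAM) averaged under 1 FPKM in control and reached the minimum through the miRs libraries, so their number is no measure of how junction genes behave in general. The mean over the 4 libraries was 1.47 FPKM for ESAM, just inside the minimum, and 0.728 FPKM for EPCAM, just outside it.

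F11R encodes JAM-A, an immunoglobulin-like adhesion molecule of tight junctions that is also found on platelets and leukocytes. It was at 4.02 and 4.50 FPKM in miRs replicates 1 and 2, against 0.195 and 0.0559 FPKM in control replicates 1 and 2. The groups were far apart and the miRs libraries close together: the lower miRs library was 20.6 times the higher control. F11R rose by 2.23 ± 0.18 on the log2(FPKM + 1) scale (SE, adjusted p = 0.0486 in limma). The call lay close to the threshold and was lost with a pseudocount of 0.1 (adjusted p = 0.0609), with quantile normalization (0.0563), with no minimum FPKM (0.114), without control replicate 1 (0.453) and without control replicate 2 (0.410). In GENCODE 29, F11R shares its locus with an unnamed protein-coding gene on the same strand (AL591806.3), which makes its level uncertain to that extent. The platelet marker genes, 6 in all, summed to 0.427 and 0.358 FPKM in miRs and 0.366 and 0.357 FPKM in control. None of the 6 lay above both controls (17.3% over all genes). Of 6 leukocyte markers, CD3E was at 0 in every library and PTPRC at most 0.0182 FPKM. CD68, which other cells express too, was at 130 and 41.9 FPKM in miRs and 53.8 and 57.6 FPKM in control. CD14, named after its values were seen, lay above both controls, at 0.111 and 0.191 FPKM in miRs and 0.0619 and 0 FPKM in control. The part of these cells in the F11R values was not tested.

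CLDN4 encodes a claudin of many simple epithelia. It was at 11.8 and 3.36 FPKM in miRs replicates 1 and 2, against 0.907 and 0.371 FPKM in control replicates 1 and 2. The groups did not overlap, but the miRs libraries lay 3.52-fold apart. The log2 difference was 2.21 ± 0.56 (SE, adjusted p = 0.120 in limma), close to the difference of F11R but with a larger error. CLDN7 encodes the claudin that binds EPCAM. It was at 3.99 and 3.19 FPKM in miRs, against 0.596 and 0.974 FPKM in control, and the miRs libraries were only 1.25-fold apart. Its log2 difference was 1.37 ± 0.21 (SE, adjusted p = 0.0754). CLDN7 overlaps ELP5 on the opposite strand, which was at 21.3 and 19.5 FPKM in miRs and 24.2 and 24.7 FPKM in control. The strand setting of the counting is not stated, so the share of ELP5 fragments in CLDN7 is unknown. CLDN7 also shares its locus with an unnamed protein-coding gene on the same strand (AC003688.1), which makes its level uncertain to that extent.

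CLDN1, a claudin of epidermis and many other epithelia, had overlapping groups. It was at 8.45 and 1.53 FPKM in miRs, against 8.01 and 4.22 FPKM in control, so it was well above 1 FPKM in both controls. Its miRs libraries lay 5.52-fold apart, the widest gap among the 7 junction genes detected in every library. The log2 difference was −0.49 ± 0.69 (SE, adjusted p = 0.692), and without miRs replicate 2 it turned to 0.46. Of the 10 junction genes, 4 were higher in miRs replicate 1 (CLDN1, CLDN4, CLDN7 and ESAM), 4 were higher in miRs replicate 2 (F11R, OCLN, TJP1 and EPCAM) and 2 were equal. Replicate 1 was the library in which 7 interferon response genes summed to 9019 FPKM, against 1806 FPKM in miRs replicate 2 and 52.4 and 64.0 FPKM in the controls. The part of the interferon response in the gaps between the miRs libraries was not tested.

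Promoter sequences were searched for E-boxes of the letters CACCTG, which are known binding sites of ZEB and Snail proteins. Any part of such sites in the values of these genes was not tested. RefSeq windows on GRCh38.p14, from 250 bases before to 50 bases after an annotated start, were found for 5 of the 10 genes (CLDN1, CLDN4, CLDN7, OCLN and TJP1), 10 windows in all. The motif was searched on both strands as CACCTG or CAGGTG. It occurs at least once in 20.6% of the 35116 windows searched and at least 5 times in 33 of them (0.0940%), of which CLDN7 has 1. The cut of 5 was set by that CLDN7 window, the one with the most matches in the set. The windows of CLDN7 (chr17:7262429-7262728, minus strand), OCLN (chr5:69492540-69492839, plus strand) and CLDN4 (chr7:73830746-73831045, plus strand) are shown 5′ to 3′ on the strand of the gene, with the motif in capitals, as the window with the most matches, an intermediate one and one with none.
CLDN7: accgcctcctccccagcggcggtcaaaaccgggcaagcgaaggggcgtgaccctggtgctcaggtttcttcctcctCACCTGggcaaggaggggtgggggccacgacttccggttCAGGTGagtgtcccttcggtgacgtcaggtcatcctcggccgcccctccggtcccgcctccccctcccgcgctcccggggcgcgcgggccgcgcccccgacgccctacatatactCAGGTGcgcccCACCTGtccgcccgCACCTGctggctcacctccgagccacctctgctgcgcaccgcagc
OCLN: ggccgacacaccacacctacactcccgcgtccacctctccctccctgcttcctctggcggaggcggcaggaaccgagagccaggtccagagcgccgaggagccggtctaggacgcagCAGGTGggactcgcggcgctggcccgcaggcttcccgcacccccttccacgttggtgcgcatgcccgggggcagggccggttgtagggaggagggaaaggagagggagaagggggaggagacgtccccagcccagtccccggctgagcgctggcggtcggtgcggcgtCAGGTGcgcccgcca
CLDN4: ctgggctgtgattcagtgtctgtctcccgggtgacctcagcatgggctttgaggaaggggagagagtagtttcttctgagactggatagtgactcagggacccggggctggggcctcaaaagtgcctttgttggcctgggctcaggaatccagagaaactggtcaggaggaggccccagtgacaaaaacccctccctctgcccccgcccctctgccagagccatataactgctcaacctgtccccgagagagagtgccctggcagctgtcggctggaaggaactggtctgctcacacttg

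In the CLDN7 window the 5 matches began at −174, −135, −20, −9 and 5, with the start base counted as 0. The last 3 of them lie close to the start. The other annotated CLDN7 start, and the windows of CLDN4 and CLDN1, held no match. OCLN had 1 match at its first start and 2 at its second, and TJP1 had 1 in 1 of its 4 windows. CLDN4, without a match in this window, and CLDN7, with 5, were both higher in each miRs library than in each control. These matches describe letters in the reference and show no binding.

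**Figure D2:**
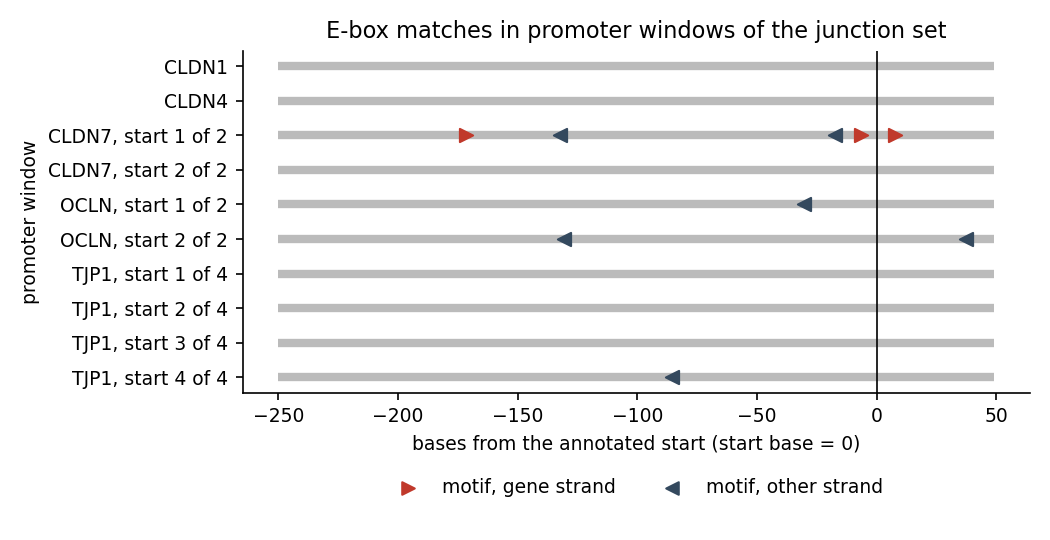
Matches to the E-box letters on the gene strand (red) and the other strand (dark blue) in the 10 promoter windows of the 5 junction genes found in RefSeq, by distance in bases from the annotated start; grey bars are the windows. One CLDN7 window holds 5 matches, and the windows of CLDN1 and CLDN4 hold none.

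OCLN encodes occludin, a strand protein with 4 membrane spans. It was at 0.344 and 0.781 FPKM in miRs, against 0.260 and 0.199 FPKM in control. The groups did not overlap, but the lower miRs library was 1.32 times the higher control and the miRs libraries were 2.27-fold apart. OCLN did not reach the minimum, and with no minimum its log2 difference of 0.33 had an adjusted p of 0.357 in limma. Parts of OCLN are copied elsewhere in its chromosomal region, so its level is uncertain. TJP1 encodes ZO-1, which fibroblasts also use at their adhesion sites. It was at 26.1 and 30.4 FPKM in miRs, against 23.5 and 24.4 FPKM in control, the highest level in the set in every library. The log2 difference was 0.23 ± 0.14 (SE, adjusted p = 0.375), and the test did not separate it from the replicate error.

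CDH1 encodes E-cadherin, the defining adhesion protein of epithelial adherens junctions. It was listed at 0 in both miRs libraries, against 0.0356 FPKM in control replicate 1 and 0 in control replicate 2. EPCAM was at 1.07 and 1.61 FPKM in miRs, against 0 and 0.228 FPKM in control, with no overlap between the groups. Its log2 difference was 1.07. EPCAM did not reach the minimum, and with no minimum its adjusted p was 0.133 and its unadjusted p 0.00371. EPCAM and CLDN7, its binding partner, were thus both higher in each miRs library than in each control.

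ESAM, a relative of JAM-A best known from endothelial junctions and platelets, was at 3.68 and 1.62 FPKM in miRs, against 0.296 and 0.310 FPKM in control. The lower miRs library was 5.21 times the higher control, and the miRs libraries were 2.27-fold apart. The log2 difference was 1.42 ± 0.33 (SE, adjusted p = 0.107). CLDN4, CLDN7 and ESAM each passed the threshold when 1 miRs library was left out, with adjusted p from 0.00714 to 0.0403, where the single miRs library left takes its spread from the controls. Those fits called many genes: 6.37% of all tested genes were called higher without miRs replicate 1 and 15.3% without miRs replicate 2. With a control left out instead, the adjusted p of these 3 genes lay between 0.489 and 0.638.

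The 10 endothelial markers summed to 21.9 and 14.2 FPKM in miRs and 21.7 and 18.4 FPKM in control, mostly TEK and EGFL7. PECAM1 and CDH5 were at most 0.0188 FPKM in any library and ERG was at 0. None of the 10 lay below both controls and 3 lay above, the direction of ESAM, against 17.1% and 17.3% of all genes. The 2 that were tested, TEK and EGFL7, had overlapping groups. TIE1 was at 0.625 and 0.251 FPKM in miRs, against 0.155 and 0.0933 FPKM in control. ROBO4 was at 1.26 and 0.984 FPKM in miRs, against 0.700 and 0.902 FPKM in control, and MMRN2 at 0.149 and 0.127 FPKM in miRs, against 0.0619 and 0 FPKM in control. These 3 were named after their values were seen, and the part of endothelial genes in the ESAM values was not tested.

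ESRP1, the splicing factor that sets epithelial exon choice in several adhesion and signalling genes, was listed at 0 in all 4 libraries. Its paralog ESRP2 was at 0.947 and 0.772 FPKM in miRs, against 0.430 and 0.384 FPKM in control. RBM47, another splicing regulator of epithelial cells, was at 0.624 and 0.597 FPKM in miRs, against 0.115 and 0.0201 FPKM in control. Neither reached the minimum for testing, and both were named after their values were seen. Of the 6 splicing regulators in the list, 3 lay above and 3 below both controls. Of the 4 tested, none passed in limma and 2 had an unadjusted p under 0.05, as did 24.2% of all tested genes. These shares, 17.3% above and 17.1% below over all genes and 24.2% of tested genes at an unadjusted p under 0.05, stand behind the counts in every list that follows. MBNL1 was at 25.3 and 22.4 FPKM in miRs and 44.5 and 41.4 FPKM in control (log2 difference −0.82, adjusted p = 0.0809). RBFOX2 averaged 30.8 ± 2.63 FPKM in miRs and 48.2 ± 0.411 FPKM in control (SD, n = 2 each; log2 difference −0.63, limma adjusted p = 0.0950), and the abundant PTBP1 differed by 0.25 (adjusted p = 0.296). Both MBNL1 and RBFOX2 favour mesenchymal exon patterns in many genes. Gene-level FPKM cannot show exon use, so nothing here bears on splicing itself. Among 5 genes whose exons ESRP1 is known to set, 4 were tested, none passed and 2 had an unadjusted p under 0.05. CD44 (−0.90, adjusted p = 0.196), ENAH (−0.71, adjusted p = 0.170) and CTNND1 (−0.07, adjusted p = 0.787) were the named ones.

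**Figure D3:**
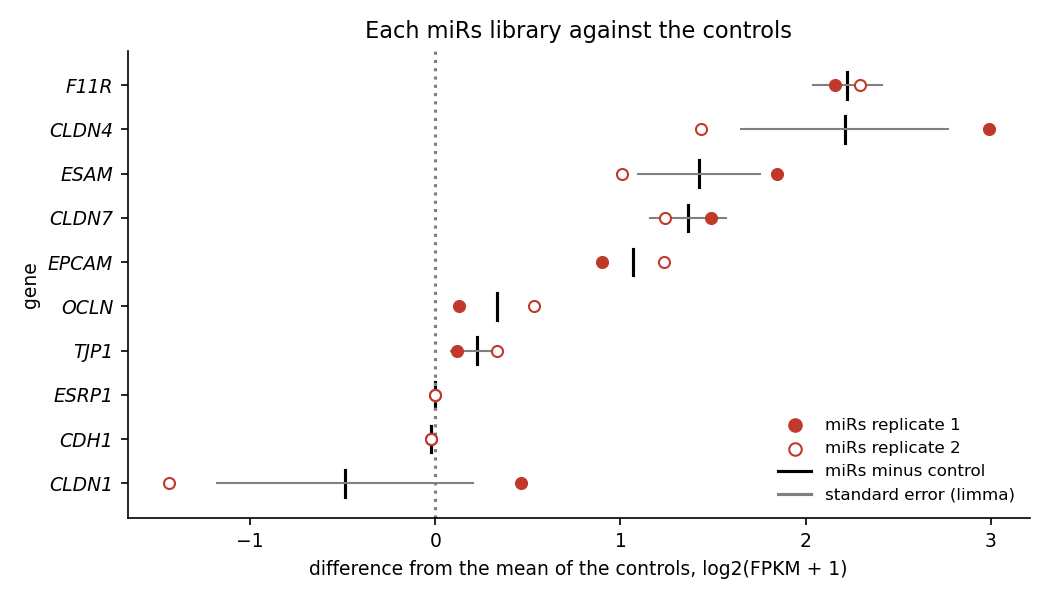
Difference of each miRs library from the mean of the 2 controls on the log2(FPKM + 1) scale, replicate 1 filled and replicate 2 open, with the mean difference as a black bar and, for the 6 tested genes, the limma standard error as a grey line. The 2 libraries lie close together for F11R and CLDN7 and far apart for CLDN4, ESAM and CLDN1, which lies on both sides of 0.

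The order of the levels differed between the groups. In miRs TJP1 led with a mean of 28.3 FPKM, followed by CLDN4 (7.60), CLDN1 (4.99), F11R (4.26), CLDN7 (3.59), ESAM (2.65), EPCAM (1.34) and OCLN (0.563). The ranges of CLDN4 and CLDN1 overlapped each other and those of F11R, CLDN7 and ESAM. Those of CLDN7 and ESAM overlapped too, as did those of CLDN1 and EPCAM. In control TJP1 led with 24.0 FPKM, followed by CLDN1 (6.11), CLDN7 (0.785), CLDN4 (0.639), ESAM (0.303), OCLN (0.230), F11R (0.126) and EPCAM (0.114). Of these, the ranges of CLDN7 and CLDN4 overlapped, and that of EPCAM overlapped those of F11R and OCLN. By these means F11R was at rank 4 in miRs and rank 7 in control, but its place varied between libraries, as the overlapping ranges show. In all, 7 of the 10 genes reached 1 FPKM in each miRs library, against 2, TJP1 and CLDN1, in each control.

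**Figure D4:**
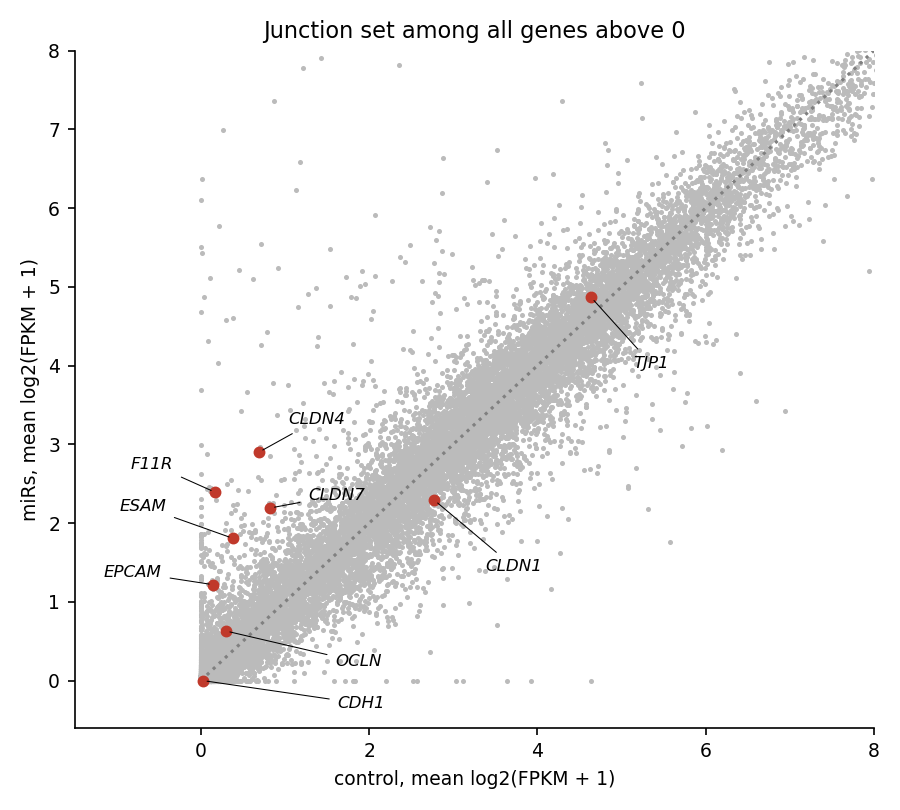
Mean log2(FPKM + 1) in control (horizontal) and miRs (vertical) for all genes detected in at least 1 library, in grey, with 9 junction genes in red; ESRP1, at 0 throughout, is not drawn, both axes end at 8, and the dotted line marks equal levels. F11R, CLDN4, CLDN7, ESAM and EPCAM lie above the line at low control levels, as do other genes, and TJP1, CLDN1, OCLN and CDH1 lie closer to it.

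Most other claudins were at or near 0. Of 20 further claudin genes, 5 were at 0 in all libraries and 4 were tested, with 2 at an unadjusted p under 0.05 and none past the adjusted threshold in limma. CLDN12 was at 16.7 and 16.3 FPKM in miRs, against 7.54 and 6.35 FPKM in control (log2 difference 1.15, adjusted p = 0.0632). CLDN23 was at 6.29 and 4.38 FPKM in miRs, against 1.22 and 2.12 FPKM in control (1.25, adjusted p = 0.0954). CLDN11, the most abundant claudin here, was at 38.7 and 82.8 FPKM in miRs, against 39.9 and 54.8 FPKM in control, and the groups overlapped.

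Among 11 further junction membrane proteins, 5 were tested and none passed, with 1 at an unadjusted p under 0.05. That was JAM2, a JAM-A relative of endothelial cells, which was at 2.15 and 0.709 FPKM in miRs, against 4.65 and 3.91 FPKM in control (log2 difference −1.18, adjusted p = 0.139), the opposite direction to F11R. JAM3, the third of the JAM genes, differed by −0.18 (adjusted p = 0.505) and CLMP by 0.18 (adjusted p = 0.503). Of 26 plaque and polarity genes, 8 lay above and 10 below both controls, and the median log2 difference of the 26 was −0.04. None of the 19 tested passed, with 9 at an unadjusted p under 0.05 (24.2% over all tested genes). AMOTL2, an angiomotin that binds actin and YAP, was at 34.7 and 41.1 FPKM in miRs, against 67.3 and 69.2 FPKM in control (−0.84, adjusted p = 0.0843). The polarity gene PARD3B differed by −0.90 (adjusted p = 0.0863) and YBX3, a partner of ZO-1 and the most abundant of the list, by 0.63 (adjusted p = 0.0925).

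Adherens junction genes went both ways, with 6 of 15 above both controls and 5 below, against 17.3% and 17.1% of all genes. Of the 11 tested, none passed the threshold and 6 had an unadjusted p under 0.05 (24.2% over all tested genes). LMO7, a linker of adherens junctions and actin, was at 28.1 and 17.6 FPKM in miRs, against 63.7 and 65.8 FPKM in control (adjusted p = 0.0809). SSX2IP differed by −0.86 (adjusted p = 0.0911), the vinculin gene VCL by −0.51 (adjusted p = 0.148) and the plakoglobin gene JUP by 0.55 (adjusted p = 0.108). In the desmosome list, 4 of 13 genes lay above both controls (17.3% over all genes), none lay below, and 4 were at 0 in all libraries. Those above included DSC3, named after its values were seen, which was near the floor. It was at 0.00988 and 0.0113 FPKM in miRs and listed at 0 in both controls. Desmoplakin (DSP) was at 6.85 and 4.09 FPKM in miRs, against 1.08 and 1.44 FPKM in control (1.49, adjusted p = 0.0863). The desmosomal cadherin DSG2 differed by 0.95 (adjusted p = 0.0887), PKP3 by 0.94 (adjusted p = 0.102) and PERP, the most abundant, by 0.08 (adjusted p = 0.867). None of the 5 tested passed, and 3 had an unadjusted p under 0.05 (24.2% over all tested genes). PKP3, with a control mean of 0.760 FPKM, was tested only through its level in miRs.

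SPINT1 and SPINT2, the inhibitors of matriptase, a protease that can cleave EPCAM, were low in control and higher in both miRs libraries. SPINT1 was at 2.79 and 4.08 FPKM in miRs, against 0.375 and 0.202 FPKM in control (log2 difference 1.77, adjusted p = 0.0667). SPINT2 averaged 4.12 ± 0.171 FPKM in miRs, against 0.865 ± 0.156 FPKM in control (SD, n = 2 each; log2 difference 1.46, limma adjusted p = 0.0632). Both belong to a list of 9 EPCAM partners and proteases, of which 4 lay above and 1 below both controls, against 17.3% and 17.1% of all genes. Of the 6 tested, none passed and 4 had an unadjusted p under 0.05 (24.2% over all tested genes), but SPINT1 and SPINT2 were tested only through their level in miRs. FHL2, which carries the EPCAM signal to the nucleus, differed by −0.79 (adjusted p = 0.138), and CD9, the most abundant, by 0.20 (adjusted p = 0.750).

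Of the repressors of epithelial genes, ZEB1 and ZEB2 were lower in both miRs libraries. ZEB1 was at 15.6 and 6.90 FPKM in miRs, against 44.3 and 36.7 FPKM in control (log2 difference −1.85 ± 0.38, SE, adjusted p = 0.0950 in limma). ZEB2 was at 4.97 and 3.21 FPKM in miRs, against 11.5 and 10.5 FPKM in control (−1.26 ± 0.21, adjusted p = 0.0846). TWIST2 was at 24.1 and 14.6 FPKM in miRs, against 9.31 and 10.5 FPKM in control (0.86, adjusted p = 0.155). SNAI2, the most abundant, was at 37.6 and 50.6 FPKM in miRs, against 28.5 and 39.8 FPKM in control (0.36, adjusted p = 0.404). Of the 11 repressors, 1 lay above and 4 below both controls, against 17.3% and 17.1% of all genes. None of the 9 tested passed, and 3 had an unadjusted p under 0.05 (24.2% over all tested genes). Of 14 epithelial transcription factors, 5 were at 0 in all libraries and 1 was tested, KLF5, which differed by 0.27 (adjusted p = 0.349).

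**Figure D5:**
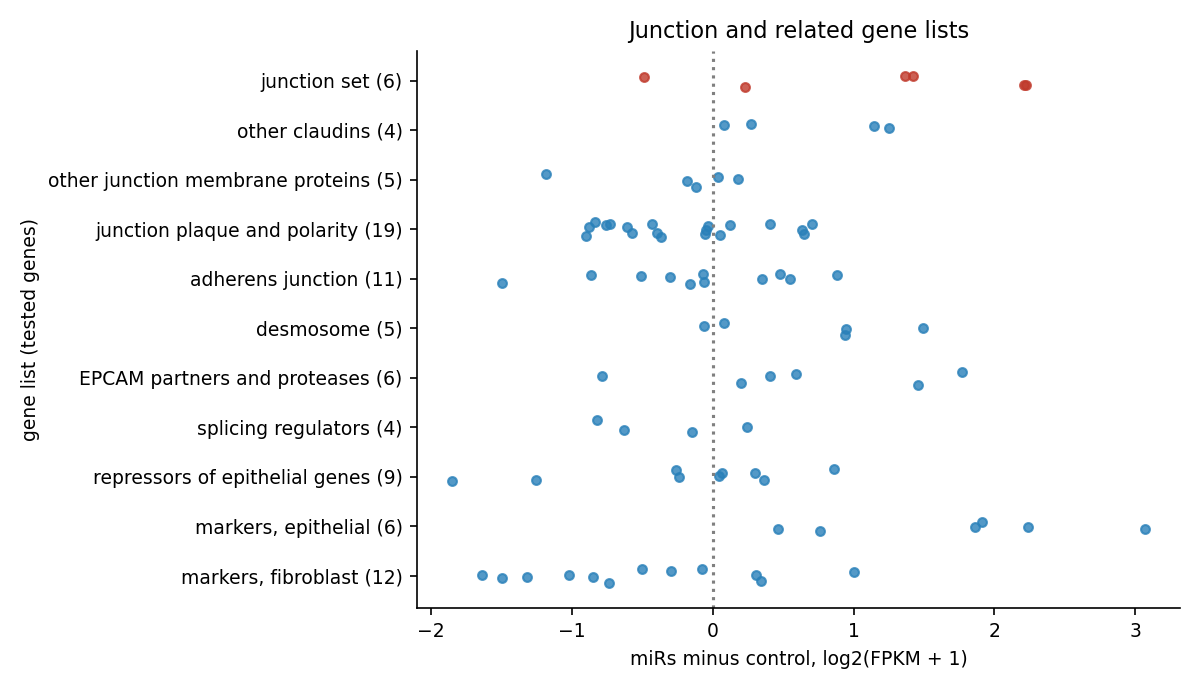
Log2 difference, miRs minus control, on the log2(FPKM + 1) scale of each tested gene in the junction set (red) and 10 related lists (blue), with the number of tested genes in brackets and a dotted line at 0. The tested genes of the other claudins and of the epithelial markers all lie above 0, and every other row, the junction set included, lies on both sides of 0. Genes low in control can be among the tested only by being high in miRs.

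Of 14 epithelial markers outside the junctions, 8 lay above both controls and none lay below, against 17.3% and 17.1% of all genes. Another 3 (KRT5, SFTPC and SCGB1A1) were at 0 in every library. The 8 included MAL2, at 0.169 and 0.0322 FPKM in miRs, and CDS1, at 0.170 and 0.0972 FPKM in miRs. These 2, named after their values were seen, were near the floor and listed at 0 in both controls. The 14 genes summed to 194 and 269 FPKM in miRs, against 32.2 and 34.4 FPKM in control, largely through the keratins KRT18 and KRT19, which passed in limma (adjusted p = 0.0354 each). Both calls were lost with no minimum FPKM (adjusted p = 0.114 each), with quantile normalization (0.0535 for KRT18 and 0.0525 for KRT19), without control replicate 1 (0.439 and 0.453) and without control replicate 2 (0.327 and 0.375). KRT8 differed by 1.91 (adjusted p = 0.0863). Of the 6 tested markers, PRSS8 and KRT7 were tested only through their level in miRs. Fibroblast markers summed to 8380 and 12963 FPKM in miRs, against 13028 and 12151 FPKM in control, with a median log2 difference of −0.62 over the 12 genes, against −0.0020 over all tested genes. Of the 12, 1 lay above and 6 below both controls, against 17.3% and 17.1% of all genes. None passed, and 7 had an unadjusted p under 0.05 (24.2% over all tested genes). The gene above, S100A4, was among these 7 and was named after its values were seen. It was at 42.1 and 70.4 FPKM in miRs, against 20.7 and 34.5 FPKM in control. Decorin (DCN) averaged 385 ± 47.4 FPKM in miRs and 1093 ± 184 FPKM in control (SD, n = 2 each; limma adjusted p = 0.0632). FAP differed by −1.64 (adjusted p = 0.0667) and THY1 by −1.02 (adjusted p = 0.0731). Leukocyte markers, nearly all CD68, summed to 131 and 42.1 FPKM in miRs and 53.8 and 57.7 FPKM in control. Mesothelial markers summed to 2.65 and 1.84 FPKM in miRs and 1.06 and 1.66 FPKM in control. In such bulk samples, more RNA per cell and more cells of a type cannot be told apart. The part of these markers in the junction gene values was not tested.

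The 5 tested genes closest to F11R over the 4 libraries, by Euclidean distance in log2(FPKM + 1), were PTGS2 (0.40), VGF (0.44), SPINT1 (0.50), CD52 (0.66) and WNT7B (0.74). PTGS2, the inducible cyclooxygenase, was at 5.26 and 4.05 FPKM in miRs, against 0.325 and 0.161 FPKM in control (adjusted p = 0.0605). CD52, a glycoprotein of lymphocytes, was at 2.44 and 3.62 FPKM in miRs and listed at 0 in both controls. The Wnt ligand WNT7B was at 2.61 and 2.91 FPKM in miRs, against 0.354 and 0.209 FPKM in control. These genes were chosen for values like those of F11R, so their higher level in miRs was set by the choice. Each averaged under 1 FPKM in control and reached the minimum for testing through the miRs libraries. With 4 libraries, such likeness describes level and contrast only, and no p is given for it.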

How the data were processed

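Total RNA was made into TruSeq Stranded mRNA libraries, per the labels' protocols. Each library has a deposited table of FPKM per gene symbol, per the file headers. Cuffdiff 2.2.1, TopHat2 2.1.1, SAMtools 0.1.18, Bowtie2 2.2.8 and the build hg19 are listed, with no role, in the submitters' processing notes. Annotation, strand setting and library scaling were not stated. FPKM is no count, so log2(FPKM + 1) was analysed by limma 3.58.1 (R 4.3.3, variance trend, 2-sided, adjusted p of 0.05) for genes averaging 1 FPKM or more. This leaves 2 residual degrees of freedom, and fold changes of low genes are understated. An exact permutation test of 2 against 2 cannot reach that threshold. On simulated data for miRs against control (11860 genes), 13 of 100 genes were called where the log2 change was 1. Where it was 2, 80 of 100 were called, and where it was 0, 5 of 11660. The changed genes had a mean log2(FPKM + 1) above 3, which only TJP1 reaches among the tested junction genes. Both groups were given the same spread, whereas 725 real genes lay over 1 log2 unit apart within miRs and 71 within control. The shares called therefore need not hold for the other junction genes. The genes and lists were chosen with earlier results of these data known, and lists are described by counts and medians, without a test. Named in each list were the 3 tested genes with the smallest p and the most abundant gene. Alternatives were another pseudocount, minimum, scaling, variance model or replicate block, and each library left out. The list symbols CSDA and KIAA1543 were matched to YBX3 and CAMSAP3 through RefSeq synonyms. Python 3.11.15 served for tables and sequences.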

Additional observations from a re-analysis of the deposited data

How the results depend on the processing

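Counts of calls moved widely with the processing. Over all genes, no call was made with no minimum FPKM (0 higher, 0 lower, with 3338 genes at an unadjusted p under 0.05), quantile normalization gave 2 higher and 4 lower, no variance trend gave 11 lower, and the replicate block gave 41 higher and 58 lower. The count of junction genes called higher was 0 with a pseudocount of 0.1, no minimum, a minimum mean of 5 FPKM (which leaves F11R untested) and quantile normalization. Leaving out 1 library at a time gave 0 to 1816 genes higher, 0 to 1930 lower and 0 to 4 junction genes higher. Without miRs replicate 1 there were 756 higher and 897 lower, and without miRs replicate 2 there were 1816 and 1930. Without control replicate 1 no gene was called in either direction (886 at an unadjusted p under 0.05), and without control replicate 2 there were 0 higher and 1 lower (947). The replicate numbers carry no stated pairing, and the deviations of same-numbered libraries correlated at 0.20 across genes, so the block is shown here alone. The block kept F11R past the threshold.

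Of 635 recomputed differences of 62 genes, 529 kept direction and call, 13 lost and 78 gained a call, 10 reversed and 5 untested ones moved beyond the replicate spread. Over the libraries left out in turn, the log2 differences that reversed without miRs replicate 2 were those of CLDN1 (−1.44 to 0.46), CLDN11 (−0.27 to 0.81), CTNND1 (−0.17 to 0.038) and TEK (−1.02 to 0.16). Those that reversed without miRs replicate 1 were PERP (−0.24 to 0.39), CD9 (−0.28 to 0.69), EGFL7 (−0.14 to 0.082) and CD68 (−0.40 to 1.21). PERP also reversed without control replicate 2 (−0.0053) and EGFL7 without control replicate 1 (0.048). None of these had passed the test. No junction gene reversed under another scaling, pseudocount or minimum. The cause was not tested. Depth is unknown, so no limit of detection can be given for CDH1 and ESRP1.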

Other observations

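Neighbouring genes, taken from GENCODE 29 after the values were seen, did not share one pattern with the junction genes. CLDN3, which lies next to CLDN4 and is a claudin of simple epithelia as well, was listed at 0 in all 4 libraries. CDH3, the P-cadherin gene next to CDH1, was also at 0 throughout. CLDN16, next to CLDN1, was at 0.0240 and 0 FPKM in miRs and 0.0535 and 0 FPKM in control. MARVELD2, which encodes tricellulin and lies next to the related OCLN, was at 1.21 and 1.57 FPKM in miRs, against 0.336 and 0.583 FPKM in control, above both controls as OCLN was. TSTD1, next to F11R, was at 0 in every library.

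PRSS8, which encodes the epithelial membrane protease prostasin, was at 1.32 and 4.70 FPKM in miRs and listed at 0 in both controls (log2 difference 1.86, adjusted p = 0.118 in limma). Cingulin (CGN), a tight junction plaque protein, averaged 0.944 ± 0.781 FPKM in miRs, against 0.189 ± 0.0309 FPKM in control (SD, n = 2 each), and its relative CGNL1 was at 0.210 and 0.420 FPKM in miRs, against 0.0468 and 0.0737 FPKM in control. Neither CGN nor CGNL1 reached the minimum for testing, and the miRs libraries of CGN lay 3.82-fold apart. Both belong to the plaque and polarity list. Of its 26 genes, 8 lay above and 10 below both controls, against 17.3% and 17.1% of all genes. PRSS8, CGN and CGNL1 were named after their values were seen.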
